A study of Mus musculus with 12 samples.

Results

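Expression of the genes for lower glycolysis and lactate dehydrogenase was followed in 12 bulk RNA-seq libraries of a mouse embryonic stem cell (ESC) line. The genes were chosen by symbol from the transcript-to-gene table that came with the data: *Aldoa*, *Aldoc*, *Tpi1*, *Gapdh*, *Pgk1*, *Pgam1*, *Eno1*, *Eno3*, *Ldha* and *Ldhb*. These 10 symbols stand for 11 gene IDs of 57180, since *Aldoa* has a second ID (ENSMUSG00000114515), a poorly covered gene model that overlaps the main one (ENSMUSG00000030695) on the same strand. All 11 IDs passed the minimum of 10 counts over all libraries and were among the 25446 genes tested.

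The libraries come from E14-DOX-CRISPRi cells, a line grown from a single chosen clone of E14 ESCs in which doxycycline (DOX) switches on a repressor that guide RNAs (gRNAs) bring to the start sites of chosen genes. The Neg line carries 4 scramble gRNAs, and the 3xKD line carries gRNAs against *Pcx*, *Me1* and *Me2*, whose enzymes turn pyruvate into oxaloacetate and malate back into pyruvate. Each line was sampled as naive ESCs (group names Neg ESC and 3xKD ESC), kept in N2B27 with 2iLIF, and as epiblast-like cells after 2 days in Activin A, Fgf2 and XAV939 (Neg EpiLC and 3xKD EpiLC), with 3 libraries in each of the 4 groups. By the study's methods, cells of all groups carry the same repressor and resistance cassettes and were grown in low oxygen. A legend of the study gives DOX for both lines in both states, whereas its culture protocol names DMSO or DOX and the labels name neither. Libraries were grouped by their titles, because another label, the cell type, reads ESC for all Neg libraries and EpiLC for all 3xKD libraries. The study describes its experiments in general as biological triplicates, without saying for these libraries what was repeated, so p-values measure the spread between these libraries. The 3xKD line differs from the Neg line by a transfection and drug selection of its own, and line and gRNAs cannot be told apart here.

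In lower glycolysis, aldolase (*Aldoa*, *Aldoc*) splits fructose 1,6-bisphosphate into 2 triose phosphates, which triosephosphate isomerase (*Tpi1*) interconverts. Glyceraldehyde-3-phosphate dehydrogenase (*Gapdh*), phosphoglycerate kinase (*Pgk1*), phosphoglycerate mutase (*Pgam1*) and enolase (*Eno1*, *Eno3*) then carry the carbon to phosphoenolpyruvate, with NADH made by *Gapdh* and ATP by *Pgk1*. Lactate dehydrogenase interconverts pyruvate and lactate as a tetramer of A and B subunits (*Ldha*, *Ldhb*). *Aldoa*, *Eno1* and *Ldha* are the forms widespread in proliferating cells, whereas *Aldoc* is known from brain, *Eno3* from muscle and *Ldhb* from heart. Naive and formative pluripotent cells both consume glucose and release lactate. Several genes of the pathway are textbook targets of the hypoxia-inducible factor (HIF), whose response element has the core ACGTG or GCGTG.

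The start sites of these genes are shown for *Ldha* and *Ldhb*, the pair that makes lactate dehydrogenase, for *Aldoc*, which had the highest fold change of the 10 genes between 3xKD and Neg, and for *Pgk1*. The sequences are the 250 bases upstream of the first listed RefSeq start site (build GRCm38.p6), 5′ to 3′ on the gene's strand, with ACGTG and GCGTG on either strand in capitals.
Ldha, chr7:46845554-46845803, plus strand: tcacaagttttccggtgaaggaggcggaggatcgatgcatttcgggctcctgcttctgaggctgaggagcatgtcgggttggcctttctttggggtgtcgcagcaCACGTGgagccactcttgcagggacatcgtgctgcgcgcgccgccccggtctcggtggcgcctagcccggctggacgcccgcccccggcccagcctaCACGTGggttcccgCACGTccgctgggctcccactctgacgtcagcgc
Ldhb, chr6:142507958-142508207, minus strand: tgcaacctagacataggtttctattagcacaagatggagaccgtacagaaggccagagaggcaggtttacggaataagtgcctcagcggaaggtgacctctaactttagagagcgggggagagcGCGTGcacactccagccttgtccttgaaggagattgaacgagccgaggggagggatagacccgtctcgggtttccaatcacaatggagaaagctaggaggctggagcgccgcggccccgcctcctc
Aldoc, chr11:78322823-78323072, plus strand: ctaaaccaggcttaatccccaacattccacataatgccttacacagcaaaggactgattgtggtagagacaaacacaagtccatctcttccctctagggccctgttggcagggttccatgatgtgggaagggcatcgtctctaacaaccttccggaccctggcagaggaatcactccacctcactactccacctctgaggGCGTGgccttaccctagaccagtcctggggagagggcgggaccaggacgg
Pgk1, chrX:106186850-106187099, plus strand: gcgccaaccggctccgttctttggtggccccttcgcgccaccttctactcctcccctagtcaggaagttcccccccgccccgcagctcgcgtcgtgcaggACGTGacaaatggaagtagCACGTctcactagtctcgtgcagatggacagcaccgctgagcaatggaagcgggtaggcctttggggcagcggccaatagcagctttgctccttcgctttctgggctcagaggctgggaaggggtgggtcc
The *Ldha* run holds 2 copies of the E-box CACGTG, which reads as ACGTG on both strands, and 1 further ACGTG. *Pgk1* has 2 copies of ACGTG, 1 on each strand, and no GCGTG. *Ldhb* and *Aldoc* have 1 copy of GCGTG each and no ACGTG in these 250 bases.

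All 10 symbols matched the RefSeq promoter table, which gives 16 windows for them, each running from 250 bases before to 50 bases after a start site. ACGTG or GCGTG lay on either strand in 14 of the 16 windows (87.5%), against 43.8% of all 32851 windows of that length. ACGTG was in 7 windows (43.8%, against 19.6% of all) and GCGTG in 11 (68.8%, against 32.4%). CACGTG, which contains ACGTG, was in 1 window (6.2%, against 7.2% of all), the first of *Ldha*. By gene, 9 of 10 had either core in at least 1 window, and *Tpi1* had neither. The share of all genes by this count is not given here, and a gene with several windows has more chances of a match. The GC content of the windows was not matched. Windows of 1 gene can overlap, and a match describes letters, not binding.

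Between 11221023 and 19652197 estimated counts were assigned to genes per library (median 15740984). The 3 gRNA targets had lower counts in all 3xKD libraries than in any Neg library of the same state, with log2 fold changes of −1.14 to −0.89 (ESCs) and −1.05 to −0.98 (EpiLCs). The summed level of 8 naive markers was 4157 to 4278 CPM (counts scaled to a common library total with TMM factors) in Neg ESC libraries, 2923 to 2976 in 3xKD ESC, 308 to 321 in Neg EpiLC and 398 to 415 in 3xKD EpiLC. That of 8 EpiLC markers was 269 to 282, 302 to 310, 3091 to 3463 and 1772 to 1837 CPM in the same order, and that of 5 general pluripotency markers 2598 to 2676, 2488 to 2524, 1985 to 2138 and 1704 to 1766. Of the lists for other cell types, 6 trophoblast markers summed to 76.1 to 81.0, 94.3 to 109, 38.3 to 39.9 and 67.4 to 68.3 CPM, and 5 neural markers to 117 to 128, 106.7 to 110.8, 133 to 139 and 70.3 to 72.5. The 6 primitive endoderm markers summed to 21.1 to 24.2, 30.1 to 32.1, 27.8 to 32.2 and 23.5 to 25.3 CPM, the 5 mesoderm markers to 20.8 to 31.2 over all groups, with overlap between the lines in each state, and the 5 fibroblast markers to 4.33 to 5.32, 7.86 to 8.56, 3.82 to 4.97 and 5.68 to 7.20. The sums of all lists but mesoderm thus differed between the lines without overlap in both states. Of all genes tested, 25.2% in ESCs and 24.1% in EpiLCs were higher in 3xKD without overlap. A sum can rest on 1 highly expressed marker, and single markers are not given here. The part of these lists in the results on glycolysis was not tested. In bulk RNA a different mix of cells and a different amount of RNA per cell cannot be told apart.

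Repression of *Pcx*, *Me1* and *Me2* was asked about first in ESCs. In 3xKD ESC libraries 8 of the 10 genes rose, from *Tpi1* at a log2 fold change of 0.58 to *Aldoc* at 2.01, and none fell. A gene was called where edgeR's quasi-likelihood test over all genes gave an adjusted p below 0.01 and the log2 fold change exceeded 0.58 in size. The 8 called IDs of 11 stand beside 8.5% of all tested genes called higher in this comparison, and the 0 called lower beside 6.76%. None was lower at an unadjusted p below 0.05, and DESeq2 gave the same counts of 8 and 0. *Pgam1* (0.35) and *Ldha* (0.46) passed the adjusted p limit but not the fold limit, so that 10 of 11 IDs passed the adjusted p limit in the upward direction, against 15.6% of all genes. The same 10 IDs had every 3xKD library above every Neg library in CPM, against 25.2% of all genes. The median over the 11 IDs was 0.61, and that over all genes tested was 0.03. Together the genes took 1.25% ± 0.05 of all counts in Neg ESC and 1.89% ± 0.03 in 3xKD ESC (SD, n = 3 each).

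In EpiLCs 4 of the 10 genes rose in 3xKD: *Aldoa*, *Aldoc*, *Pgk1* and *Ldhb*. Again none fell. Of all genes tested 7.88% were called higher and 5.35% lower, no ID was lower at an unadjusted p below 0.05, and DESeq2 gave counts of 4 and 0. *Tpi1*, *Gapdh*, *Pgam1* and *Eno1* passed the adjusted p limit with log2 fold changes of 0.12 to 0.32. This brought the IDs past that limit to 8 of 11, against 14.3% of all genes. The number was 6 with average transcript lengths as offsets, 7 with the replicate number as a block or with only the EpiLC groups fitted, and 9 with DESeq2. *Ldha* (0.09) and *Eno3* (−0.18) did not pass it. For 9 IDs every 3xKD library lay above every Neg library in CPM, against 24.1% of all genes. The median over the 11 IDs was 0.26, beside 0.03 over all genes, and the summed share of counts was 1.14% ± 0.02 in Neg EpiLC and 1.52% ± 0.06 in 3xKD EpiLC (SD, n = 3 each).

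**Figure D1:**
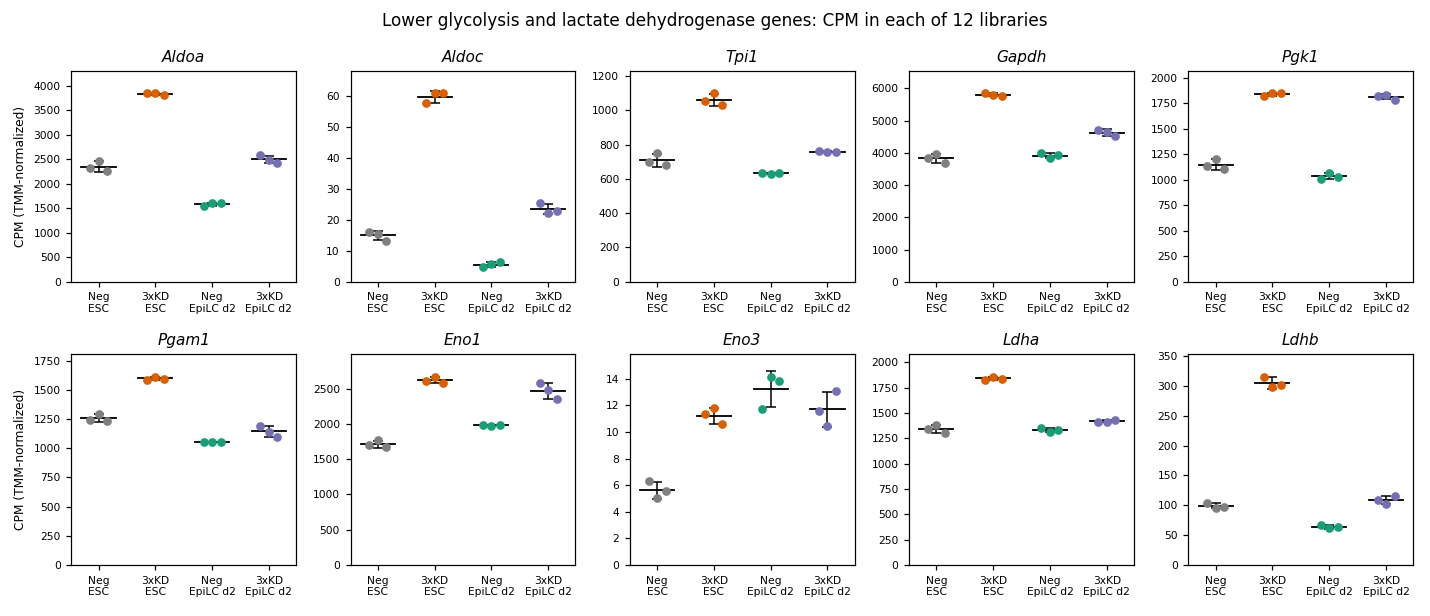
CPM (TMM-normalized, linear axes from 0) of the 10 genes in each of the 12 libraries, with 1 point per library, a line at the group mean and bars of 1 SD (n = 3). The 3xKD ESC points lie above the Neg ESC points in all 10 panels, whereas in EpiLCs the 2 lines overlap for Eno3.

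*Aldoa* is the main aldolase of most tissues and lies at chr7:126393822-126399923 on the minus strand (GRCm39, as all gene positions here). In Neg ESC its CPM were 2330.1, 2472 and 2253, and in 3xKD ESC 3848, 3847 and 3809. In EpiLCs the Neg libraries had 1553, 1611 and 1601 CPM, and the 3xKD libraries 2581, 2492 and 2432. The lines were separate in both states and the states in both lines, while Neg ESC and 3xKD EpiLC overlapped. *Aldoa* rose 1.63-fold in 3xKD ESCs (log2 fold change 0.71, standard error (SE) 0.038, adjusted p = 3.0e-10, edgeR) and 1.57-fold in 3xKD EpiLCs (0.66, SE 0.038, adjusted p = 8.1e-10, edgeR). The second *Aldoa* ID had 211 estimated counts over all libraries and was called in none of the comparisons.

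*Aldoc* (chr11:78213619-78218889, plus strand), the aldolase of brain, showed the highest fold changes of the 10 genes. Its CPM were 16.2, 15.4 and 13.2 in Neg ESC and 57.6, 60.8 and 60.8 in 3xKD ESC. In EpiLCs they were 4.62, 5.64 and 6.32 in Neg and 25.4, 22.2 and 23.0 in 3xKD. All 4 groups were separate from each other, and the 3xKD EpiLC libraries remained above Neg ESC. The log2 fold change was 2.01 (SE 0.087) in ESCs and 2.09 in EpiLCs ( SE 0.10, adjusted p = 1.4e-10, edgeR).

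*Tpi1* (chr6:124787549-124791273, minus strand) had CPM of 695, 751 and 679 in Neg ESC and 1054, 1098 and 1031 in 3xKD ESC. In EpiLCs the values were 633, 626 and 635 in Neg, and 759.7, 759.5 and 756 in 3xKD. The lines were separate in both states, by a wider margin in ESCs. The ESC difference sat on the fold limit (log2 fold change 0.58, SE 0.038, adjusted p = 2.6e-09, edgeR). It fell short of a call without Neg ESC replicate 1 (0.57), without Neg ESC replicate 3 (0.55), without 3xKD ESC replicate 2 (0.56), with library size alone (0.57) and when only the ESC groups were fitted (0.57).

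*Gapdh* (chr6:125135289-125143518, minus strand) makes the NADH that lactate dehydrogenase can use again, and is a common reference gene for expression assays. Its CPM were 3829, 3980.2 and 3689 in Neg ESC and 5848, 5807 and 5770.2 in 3xKD ESC. In EpiLCs they were 3993, 3838 and 3923 in Neg and 4723, 4639 and 4531 in 3xKD. The 3xKD ESC libraries stood above all others, and the Neg libraries of both states overlapped. *Gapdh* rose 1.51-fold in 3xKD ESCs (log2 fold change 0.60, SE 0.035, adjusted p = 8.8e-10, edgeR), a call that was lost without Neg ESC replicate 3 (0.57). In EpiLCs the log2 fold change was 0.24 (SE 0.035), under the fold limit.

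*Pgk1* (chrX:105230706-105247305, plus strand) carries out the first ATP-producing step. CPM were 1139, 1206 and 1104 in Neg ESC and 1820.4, 1849 and 1849 in 3xKD ESC. In EpiLCs they were 1009.6, 1068 and 1029.9 in Neg and 1827, 1838 and 1789 in 3xKD. The 3xKD libraries of both states overlapped at one level, well above Neg. *Pgk1* rose 1.60-fold in ESCs (log2 fold change 0.68, SE 0.036) and 1.75-fold in EpiLCs (0.81, SE 0.036, adjusted p = 5.0e-11, edgeR). The resistance cassettes of the line, those of the gRNA vectors included, are driven by a PGK promoter, and whether any of their transcripts were assigned to *Pgk1* was not tested.

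*Pgam1* (chr19:41900341-41907104, plus strand), which moves the phosphate of 3-phosphoglycerate, had 1237, 1297 and 1233 CPM in Neg ESC and 1583, 1612 and 1595 in 3xKD ESC. In EpiLCs it had 1049.8, 1049.5 and 1049.0 in Neg and 1188, 1142 and 1099.6 in 3xKD. The lines were separate in both states. Neither difference passed the fold limit, with log2 fold changes of 0.35 (SE 0.034) in ESCs and 0.12 (SE 0.034, adjusted p = 0.0082, edgeR) in EpiLCs.

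*Eno1* (chr4:150321073-150337027, plus strand), the widespread enolase, had CPM of 1706, 1767 and 1670.1 in Neg ESC and 2607, 2671 and 2584 in 3xKD ESC. In EpiLCs the values were 1980.4, 1971 and 1992 in Neg and 2573, 2476 and 2353 in 3xKD. The lines were separate in both states, and 3xKD EpiLC came near the level of 3xKD ESC. *Eno1* rose 1.53-fold in ESCs (log2 fold change 0.61, SE 0.037, adjusted p = 1.1e-09, edgeR), and the call was lost when average transcript lengths entered as offsets (0.56). In EpiLCs the log2 fold change was 0.32 (SE 0.037).

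The counts of *Eno1* have to be read together with those of *Eno1b*, a gene 99.48% identical to *Eno1* over 99.4% of its transcript, between which the quantifier had to divide reads. *Eno1b* held 38.6% ± 0.89 of the counts of the pair in Neg ESC, 38.7% ± 0.24 in 3xKD ESC, 39.4% ± 0.44 in Neg EpiLC and 39.7% ± 0.64 in 3xKD EpiLC (SD, n = 3 each). The division was thus nearly the same in every group. For *Eno1b* the log2 fold changes between 3xKD and Neg were 0.62 (SE 0.038) in ESCs and 0.33 (SE 0.038) in EpiLCs, close to those of *Eno1*. Which of the pair was transcribed cannot be told apart from these tables. With copies added to their parent gene, the number of IDs called stayed at 8 in ESCs and 4 in EpiLCs.

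**Figure D2:**
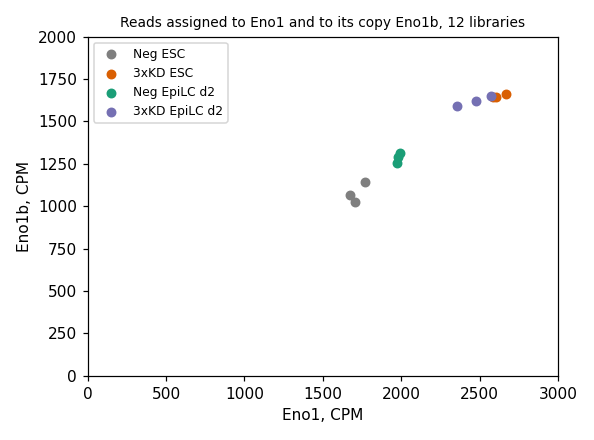
CPM assigned to Eno1 (horizontal) and to its near-identical copy Eno1b (vertical), 1 point per library, coloured by group, on linear axes from 0. The points lie along 1 line through all 4 groups, with the copy at 38.6% to 39.7% of the counts of the pair in the group means.

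*Eno3* (chr11:70546593-70553340, plus strand), the muscle enolase, had few counts and behaved unlike the rest. Its CPM were 6.29, 5.02 and 5.56 in Neg ESC and 11.4, 11.8 and 10.6 in 3xKD ESC. In EpiLCs they were 11.7, 14.2 and 13.8 in Neg and 11.6, 10.4 and 13.1 in 3xKD. Neg ESC stood alone below the other 3 groups, which overlapped. The rise in 3xKD ESCs was 2.00-fold (log2 fold change 1.01, SE 0.12, adjusted p = 2.8e-06, edgeR), and the difference of −0.18 (SE 0.11, adjusted p = 0.23, edgeR) in EpiLCs did not pass. The ESC call was lost with transcript-length offsets (0.77, adjusted p = 0.047, edgeR). The share of *Eno3* TPM (counts scaled by transcript length) given to its transcript ENSMUST00000072841 was 62.0% ± 3.2 in 3xKD ESC and 16.6% ± 28.7 in 3xKD EpiLC (SD, n = 3 each). In Neg EpiLC the TPM of *Eno3* were 6.50, 12.2 and 15.1.

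*Ldha* (chr7:46490899-46505061, plus strand) encodes the A subunit, the form usually linked with lactate production. Its CPM were 1342, 1379 and 1303 in Neg ESC and 1828, 1859 and 1839 in 3xKD ESC. In EpiLCs they were 1351, 1311 and 1329 in Neg and 1415, 1413 and 1434 in 3xKD. The 3xKD ESC libraries were highest, and in EpiLCs the lines were separate by a narrow gap. The log2 fold change was 0.46 (SE 0.031, adjusted p = 4.8e-09, edgeR) in ESCs, under the fold limit, and 0.09 (SE 0.031, adjusted p = 0.023, edgeR) in EpiLCs.

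*Ldhb* (chr6:142435672-142454586, minus strand) encodes the B subunit, usually linked with lactate use. Its CPM were 104, 96.3 and 97.6 in Neg ESC and 315, 298 and 300.4 in 3xKD ESC. In EpiLCs they were 66.6, 61.2 and 63.1 in Neg and 109, 102 and 115 in 3xKD. In EpiLCs the 3xKD libraries ended near the level of Neg ESC, and in each state the lines were separate. *Ldhb* rose 3.06-fold in 3xKD ESCs (log2 fold change 1.62, SE 0.047, adjusted p = 6.0e-13, edgeR) and 1.71-fold in 3xKD EpiLCs (0.77, SE 0.049).

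**Figure D3:**
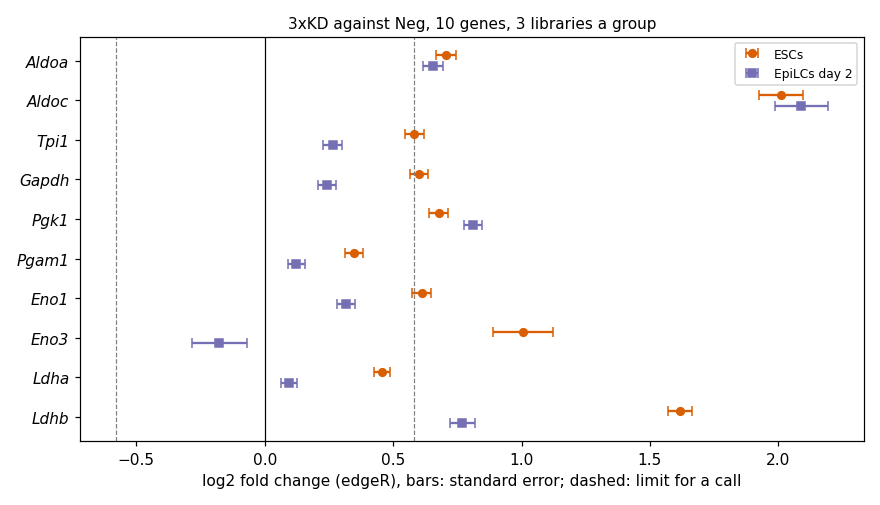
Log2 fold change of 3xKD against Neg for each gene in ESCs (circles) and EpiLCs day 2 (squares), with bars of 1 standard error from edgeR and dashed lines at the fold limit for a call. For Aldoa, Aldoc and Pgk1 the circle and the square of the gene lie close together, whereas Ldhb is at 1.62 in ESCs and 0.77 in EpiLCs.

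Whether the response to repression differed between the states was tested with an interaction term, called at an adjusted p below 0.01 with no fold limit. For 7 of the 10 genes the 3xKD effect was lower in EpiLCs than in ESCs, beside 5.27% of all tested genes. It was called higher for 0 of them, beside 4.76% of all genes, with 1 higher at an unadjusted p below 0.05 and 1 higher in DESeq2, *Pgk1* in both cases. The differences of log2 fold changes (EpiLC minus ESC) were −1.18 (SE 0.16) for *Eno3*, −0.85 (SE 0.067) for *Ldhb*, −0.36 (SE 0.044) for *Ldha*, −0.36 (SE 0.050) for *Gapdh*, −0.32 (SE 0.053) for *Tpi1*, −0.30 (SE 0.052) for *Eno1* and −0.22 (SE 0.048) for *Pgam1*. The remaining genes gave −0.05 (SE 0.053) for *Aldoa*, 0.08 (SE 0.14) for *Aldoc* and 0.13 (SE 0.051, adjusted p = 0.093, edgeR) for *Pgk1*. Both aldolases and *Pgk1* therefore passed in neither direction, which does not show that their effects were equal. With library size alone as normalization, 5 genes were called lower, without *Pgam1* (−0.15) and *Eno1* (−0.22), and the share of higher calls among all called genes went from 47.4% to 64.9%. With transcript-length offsets 4 were called, without *Pgam1* (−0.21), *Eno1* (−0.22) and *Eno3* (−0.75). *Pgam1* also lost its call, at −0.22 to −0.21, when any of Neg ESC replicate 1, Neg ESC replicate 3, 3xKD ESC replicate 2, Neg EpiLC replicate 3 or 3xKD EpiLC replicate 2 was left out.

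The exit from naive pluripotency was compared within each line. These comparisons share libraries with those above, so their values are given side by side only. In Neg cells, *Eno3* rose from ESCs to EpiLCs (log2 fold change 1.24, SE 0.12), while *Aldoc* (−1.42, SE 0.11) and *Ldhb* (−0.64, SE 0.049) fell. That is 1 gene higher, against 9.78% of all genes, and 2 lower, against 11%. The EpiLC libraries lay above all ESC libraries for 2 IDs (26.2% of all genes) and below them for 6 (25.5%). *Aldoa* came next with −0.57 (SE 0.038), under the fold limit, which it passed without Neg ESC replicate 3 (−0.60) and with library size alone (−0.60). *Pgam1* (−0.26), *Tpi1* (−0.17) and *Pgk1* (−0.15) passed the adjusted p limit alone in the lower direction, and *Eno1* (0.21) in the higher, which made 6 IDs lower (18.2% of all genes) and 2 higher (17.5%) by that limit. *Gapdh* (0.03, SE 0.035, adjusted p = 0.52, edgeR) and *Ldha* (−0.01, SE 0.031, adjusted p = 0.81, edgeR) did not pass. The call of *Ldhb* was lost without Neg EpiLC replicate 2 (−0.58), with upper-quartile factors (−0.56) and with transcript-length offsets (−0.57), and that of *Eno3* with transcript-length offsets (0.90, adjusted p = 0.019, edgeR).

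In 3xKD cells, *Ldhb* (−1.49, SE 0.046, adjusted p = 1.3e-13, edgeR), *Aldoc* (−1.34, SE 0.083) and *Aldoa* (−0.62, SE 0.038) fell from ESCs to EpiLCs and none rose. The 3 lower genes stand beside 9.32% of all genes called lower, and the 0 higher beside 9.42%. The count higher was also 0 at an unadjusted p below 0.05 and in DESeq2. The EpiLC libraries lay below all ESC libraries for 8 IDs (25.7% of all genes) and above them for 0 (25.9%). *Tpi1* and *Pgam1* (both −0.48), *Ldha* (−0.37) and *Gapdh* (−0.33) passed the adjusted p limit but not the fold limit, for 7 IDs in all past it (17.9% of all genes), and *Eno1* (−0.09), *Pgk1* (−0.02) and *Eno3* (0.06) did not pass. *Aldoa* lost its call with upper-quartile factors (−0.54) and library size alone (−0.58). The median over the 11 IDs was −0.17 in Neg and −0.48 in 3xKD, beside 0.01 over all genes in both. The test of this difference between lines is the same interaction term as above.

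**Figure D4:**
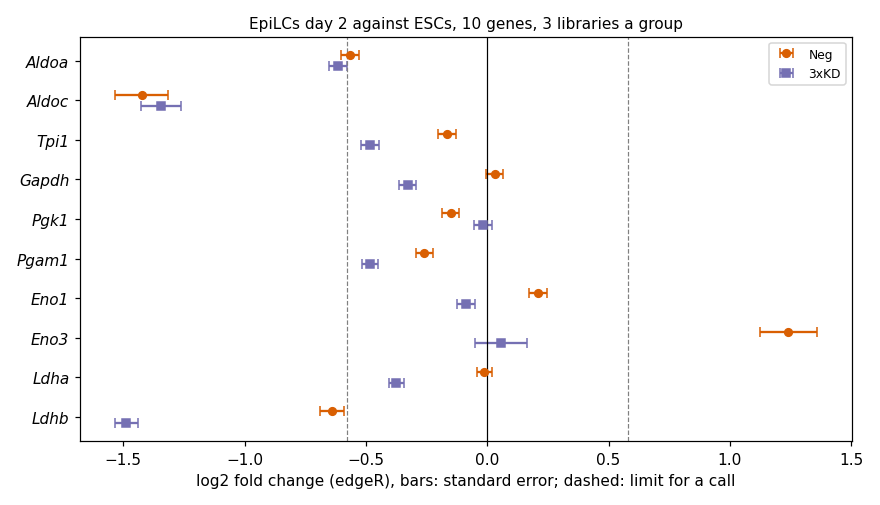
Log2 fold change from ESCs to EpiLCs day 2 for each gene in the Neg line (circles) and the 3xKD line (squares), with bars of 1 standard error from edgeR and dashed lines at the fold limit. Aldoc, Aldoa and Ldhb are below 0 in both lines, and Eno3 is at 1.24 in Neg and 0.06 in 3xKD.

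Levels per transcript length, in TPM (counts divided by effective length and scaled to the same total in every library), ordered the genes in much the same way in all groups. In Neg ESC the mean TPM were 4841 for *Gapdh*, 1469 for *Eno1*, 1331 for *Aldoa*, 915 for *Ldha*, 609 for *Pgam1*, 463 for *Pgk1*, 410.1 for *Tpi1*, 79.4 for *Ldhb*, 6.59 for *Aldoc* and 5.14 for *Eno3*. Neighbours in that order had overlapping ranges for *Eno1* and *Aldoa*, *Pgam1* and *Pgk1*, *Pgk1* and *Tpi1*, and *Aldoc* and *Eno3*, although the order held within each of the 3 libraries. In 3xKD EpiLC *Pgk1* (771 TPM) stood above *Pgam1* (585), with overlapping ranges. In Neg EpiLC *Eno3* (11.3 TPM) lay above *Aldoc* (2.87), with no overlap. TPM of *Aldoa* spread more between the Neg ESC libraries (1182, 1675 and 1136) than its CPM did. The lines were separate for fewer genes in TPM than in CPM. The share of all genes that were separate in TPM is not given here. Whether the loss of separation is particular to these genes thus cannot be told. In ESCs their TPM ranges overlapped for *Tpi1*, *Pgam1*, *Eno1* and *Ldha*. In EpiLCs they overlapped for these genes and for *Gapdh* and *Eno3*. Mean TPM in EpiLCs were lower in 3xKD than in Neg for *Gapdh* (5867 against 5931), *Ldha* (994 against 1075) and *Pgam1* (585 against 597).

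Shares within a pair of isozyme genes cancel the scaling of a library. *Ldhb* made up 7.86%, 7.93% and 8.21% of the summed TPM of *Ldha* and *Ldhb* in Neg ESC and 16.0%, 16.1% and 17.3% in 3xKD ESC. In EpiLCs the shares were 5.66%, 5.27% and 5.42% in Neg and 9.81%, 7.88% and 8.52% in 3xKD. The B subunit thus had a higher share of the transcripts in 3xKD in both states, and the groups overlapped in neither. The mean difference was 8.47 percentage points in ESCs and 3.28 in EpiLCs (exact two-sided permutation test, p = 0.1 for each, the smallest that 3 against 3 allows, 0.15 after adjustment over 12 comparisons). *Aldoc* made up 0.496% ± 0.044 of the summed aldolase TPM in Neg ESC and 1.27% ± 0.057 in 3xKD ESC, with 0.270% ± 0.033 in Neg EpiLC and 0.811% ± 0.051 in 3xKD EpiLC (SD, n = 3 each), again with no overlap and exact permutation p = 0.1. The *Eno3* share of *Eno1* and *Eno3* stayed below 0.7% and overlapped in all 4 comparisons (exact permutation p = 0.2 to 0.8). With *Eno1b* and the other copies added to their parents the *Ldhb* share was 7.77% in Neg ESC and 16.1% in 3xKD ESC.

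**Figure D5:**
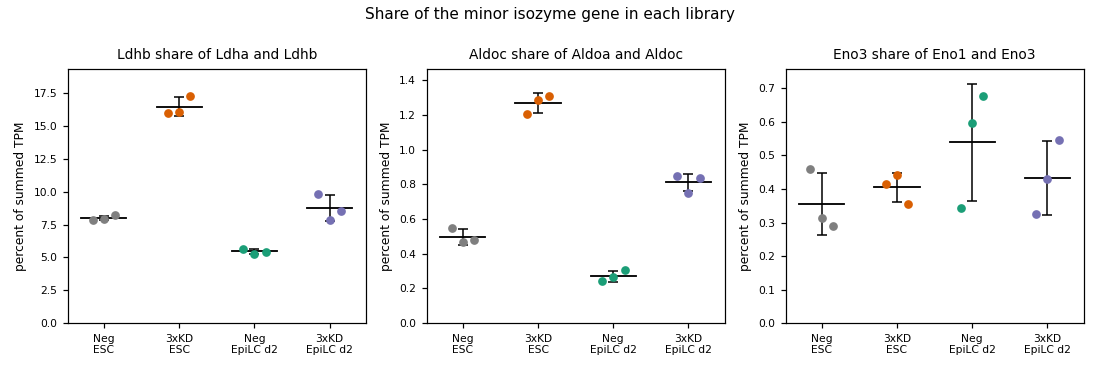
Percent of the summed TPM of a pair of isozyme genes that belongs to the less abundant gene, 1 point per library, with the group mean and bars of 1 SD (n = 3), on linear axes from 0. Ldhb and Aldoc are higher in 3xKD than in Neg in both states without overlap, and Eno3 overlaps throughout.

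Other isozymes of the same steps were listed beside these genes. Of the 8 that had enough counts to test, 2 were called higher and 0 lower in 3xKD ESCs (8.5% and 6.76% of all genes), and again 2 and 0 in 3xKD EpiLCs (7.88% and 5.35%), with 1 lower at an unadjusted p below 0.05 in each. From ESCs to EpiLCs 2 were higher and 2 lower in Neg (9.78% and 11% of all genes), and 0 and 1 in 3xKD (9.42% and 9.32%). *Eno2*, the enolase of neurons, was higher in both states. Its CPM were 4.08, 3.51 and 2.91 in Neg ESC and 14.1, 15.1 and 16.2 in 3xKD ESC, a log2 fold change of 2.13 (SE 0.14). In EpiLCs *Eno2* had 1.60, 1.75 and 1.33 CPM in Neg and 4.53, 5.12 and 4.25 in 3xKD (1.57, SE 0.17). *Pgam2*, the muscle mutase, was called in ESCs (0.299 to 1.52 CPM, log2 fold change 2.28, SE 0.35). *Ldhd*, a dehydrogenase of D-lactate, was called in EpiLCs (0.647 to 1.63 CPM, 1.34, SE 0.34). These 2 genes had 204 and 341 estimated counts over all libraries. The interaction term was called higher for 0 of the 8 and lower for 0 (4.76% and 5.27% of all genes). It was lower for 2 at an unadjusted p below 0.05. *Pgk2*, *Bpgm*, *Eno4*, *Ldhc* and *Ldhal6b* were called in neither state.

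A list of 24 genes for flanking steps (glucose uptake, upper glycolysis, pyruvate kinase, lactate and pyruvate carriers, pyruvate dehydrogenase and its kinases, the glycerol phosphate shuttle and side reactions) was tested in full. In 3xKD ESCs 9 were called higher and 0 lower, beside 8.5% and 6.76% of all genes, with a median of 0.43. In EpiLCs the counts were 4 and 0, beside 7.88% and 5.35%, with a median of 0.19. By the adjusted p limit alone, 17 were higher in ESCs (15.6% of all genes) and 3 lower, *Gpd1l*, *Minpp1* and *Tigar*. In EpiLCs 15 were higher by that limit (14.3% of all genes) and 2 lower, *Minpp1* and *Slc16a3*. The share of all genes lower by that limit is not given here. At an unadjusted p below 0.05, 4 were lower in ESCs and 3 in EpiLCs. From ESCs to EpiLCs 4 were called higher and 8 lower in Neg (9.78% and 11% of all genes), and 3 and 10 in 3xKD (9.42% and 9.32%). The hexokinase *Hk1* (1.11 in ESCs, 0.96 in EpiLCs), the glucose transporter *Slc2a3* (0.82 and 0.98), *Gpi1* (0.83 and 0.70) and the phosphofructokinase *Pfkp* (0.87 and 1.11) were called in both states. *Slc2a1*, *Hk2*, *Slc16a3*, *Bsg* and *Pdk3* were called in ESCs and not in EpiLCs, and the difference between states passed for *Hk2*, *Slc16a3* and *Bsg*. The interaction term was lower for 6 genes, *Slc16a3*, *Mpc1*, *Bsg*, *Hk2*, *Pkm* and *Pfkl*, and higher for 3, *Pfkm*, *Pdk1* and *Gpd1l*, beside 5.27% and 4.76% of all genes. *Slc16a3*, a lactate exporter, had 186, 202 and 184 CPM in Neg ESC and 332, 334 and 326 in 3xKD ESC. In EpiLCs it had 354, 352 and 344 in Neg and 299.6, 323 and 292 in 3xKD, so the order of the lines turned round (log2 fold changes 0.80 and −0.20, difference −0.996, SE 0.058). *Pkm*, whose product makes the pyruvate that *Ldha* reduces, had log2 fold changes of 0.51 in ESCs and 0.20 in EpiLCs, both under the fold limit.

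Other near-identical copies held little of the signal. At least 95% identity over at least 50% of a copy was found for 97 copies of *Gapdh*, which held 1.47% of the counts of the gene and its copies, for 3 of *Ldha* (2.51%), 4 of *Pgk1* (0.373%), 2 of *Pgam1* (0.134%), 1 of *Tpi1* (0.121%) and 1 of *Ldhb* (0.0742%). *Aldoa*, *Aldoc* and *Eno3* had none. Genes on the opposite strand that overlap *Gapdh*, *Tpi1*, *Aldoa* or *Eno3* averaged at most 225 counts per library.

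The genes whose log2(CPM + 0.5) followed *Aldoc*, *Ldha* and *Ldhb* most closely were looked up among 9634 genes with a mean of 10 CPM or more. For *Aldoc* they were *Snd1*, *Dock6* and *Fstl1* (Pearson r = 0.995, 0.995 and 0.994 over the 12 libraries). For *Ldha* they were *Dlg1*, *Uba1* and *Atp5f1a* (0.988, 0.980 and 0.979), and for *Ldhb* they were *Bsg*, *Cat* and *Prkaca* (0.996, 0.995 and 0.994). Among the 10 genes themselves r was highest between *Aldoa* and *Aldoc* (0.989) and between *Tpi1* and *Ldhb* (0.985), and *Eno3* lay between −0.18 and 0.63 against the others. These values rest on 4 groups and on libraries shared by all genes, and are descriptions.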

How the data were processed

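The authors trimmed reads with Trim Galore 0.6.7, aligned them to GRCm39 with STAR 2.7.9a and quantified transcripts with Salmon 1.10.1, tool versions as in the submitters' processing notes. The deposited tables give the authors' estimated counts of each transcript (not normalized) and its TPM (scaled by the authors' quantifier for effective length and library total). The molecule field names polyadenylated RNA and the protocol rRNA depletion with directional libraries. DOX is taken from a legend of the study, since its culture protocol names DMSO or DOX and the labels neither.

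Counts were added up over the transcripts of a gene and rounded. TMM factors and the fit came from edgeR 4.0.16 (R 4.3.3, quasi-likelihood, 4 groups, 12 libraries, genes with 10 or more counts). P-values were adjusted by Benjamini-Hochberg over 25446 genes. Standard errors were derived from the fold change and its F statistic. CPM used TMM-scaled library sizes, and depth is the sum of estimated counts. Copies were found with blastn 2.17.0 in GENCODE vM39 transcripts. Replicates were not duplicates of each other (chi-square divided by its degrees of freedom was 3.31 to 23.9). No pairing by replicate number was seen (correlations of deviations −0.24 to 0.18 for the same number, −0.26 to 0.32 for unlike numbers). With 3 libraries a group this check cannot settle whether libraries shared a batch. Members and lists were chosen with earlier results of these data known, and named genes are the 10 members, the gRNA targets, both lists, copies and the 3 closest genes to *Aldoc*, *Ldha* and *Ldhb*. The code was tested on simulated data. Protein identity between isozymes was not analysed here. Alternatives were DESeq2 1.42.0, other normalizations, filters, limits and offsets, a replicate block, copies added, and each library left out.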

Additional observations from a re-analysis of the deposited data

Results flagged for a closer look

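The 3xKD effect differed between the states for 7 genes, as tested by the interaction term in edgeR with p adjusted over all genes, and each is listed for that reason. The difference of log2 fold changes, EpiLC minus ESC, was −0.3191 for *Tpi1* (adjusted p = 0.00043, edgeR), −0.3585 for *Gapdh* (adjusted p = 7.8e-05, edgeR) and −0.2236 for *Pgam1* (adjusted p = 0.0037, edgeR). It was −0.2955 for *Eno1* (adjusted p = 0.00067, edgeR) and −1.184 for *Eno3* (adjusted p = 6.2e-05, edgeR). For the lactate dehydrogenases it was −0.363 for *Ldha* (adjusted p = 2.1e-05, edgeR) and −0.8482 for *Ldhb* (adjusted p = 2.0e-07, edgeR). The sum of 8 naive markers was lower in 3xKD than in Neg in ESCs and higher in EpiLCs, and its part in these differences was not tested. Single outlying libraries were not screened for, since each group has 3.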

How the results depend on the processing

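Of 1364 values recomputed for the 11 gene IDs under 25 alternatives, 1294 kept their direction and whether they were called. Another 24 lost a call, 19 gained one and 27 were reversed, all of the reversed ones for differences that were not called. A value that crossed the adjusted p limit with no change of call counts as kept. Without a fold limit and at an adjusted p below 0.05, counts were 9 higher in EpiLCs for 3xKD against Neg, 2 higher and 6 lower from ESCs to EpiLCs in Neg, and 7 lower in 3xKD. Of all 25446 genes, that limit called 9694 for 3xKD against Neg in EpiLCs (49.9% of them higher). From ESCs to EpiLCs it called 11231 in Neg (49.7% of them higher) and 10838 in 3xKD (48.3%). With upper-quartile factors 1 was lower in Neg from ESCs to EpiLCs. With transcript-length offsets 0 were higher and 1 lower in that comparison, and 4 differed between states. The IDs past the adjusted p limit were then 9 in 3xKD ESCs, 6 in 3xKD EpiLCs and 5 from ESCs to EpiLCs in Neg, instead of 10, 8 and 8. DESeq2 called 1 higher effect in EpiLCs, *Pgk1* (0.14, adjusted p = 0.0077, DESeq2). Leaving out 1 library gave 6 to 8 IDs higher in 3xKD ESCs, 4 to 4 in EpiLCs, 1 to 3 lower from ESCs to EpiLCs in Neg (1 without Neg EpiLC replicate 2), 3 to 3 lower in 3xKD, and 6 to 7 with a lower effect in EpiLCs. The difference between states needs all 4 groups, so a fit of only the groups compared was not run for it. No scaling moved the median of genes with at least 1 CPM by over 0.1.

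Reversed values were, for *Ldha* from ESCs to EpiLCs in Neg, 0.0078 with DESeq2, 0.0072 with RLE factors, 0.071 with upper-quartile factors, 0.020 with length offsets and −0.033 to 0.033 with a library left out. For *Pgk1* from ESCs to EpiLCs in 3xKD they were 0.012 with DESeq2 and with RLE factors, 0.056 with upper-quartile factors, 0.020 with library size alone, 0.0060 with no filter, 0.0047 with length offsets and −0.025 to 0.0033 with a library left out (above 0 without 3xKD EpiLC replicate 3). Length offsets also reversed *Eno3* in EpiLCs (0.023) and *Eno1* from ESCs to EpiLCs in 3xKD (0.051). Library size alone reversed *Gapdh* from ESCs to EpiLCs in Neg (−0.0052) and the difference between states of *Aldoa* (0.024). With a library left out, the range crossed 0 for the second *Aldoa* ID in EpiLCs (−0.19 to 0.46) and its difference between states (−0.47 to 0.19), for the difference of *Aldoc* (lowest −0.064, without Neg EpiLC replicate 1), and for *Eno3* from ESCs to EpiLCs in 3xKD (−0.021 to 0.13) and its share of enolase TPM (−0.027 to 0.084 percentage points), both below 0 without 3xKD EpiLC replicate 3. For reversals other than those that leave out libraries, the cause was not tested.

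With the replicate number as a block, 8 IDs were higher in 3xKD ESCs, 4 in 3xKD EpiLCs and 7 had a lower effect in EpiLCs, as without it. From ESCs to EpiLCs the block gave 1 higher and 2 lower in Neg, and 0 and 3 in 3xKD. Of 18 same-numbered pairs 3 had deviations correlated above 0.1. Depth limits *Eno3*, *Aldoc* and the second *Aldoa* ID most.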

Other observations

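*Actb* and *Tbp*, which the study used as references for RT-qPCR, were looked at after the values of *Gapdh* were known. *Actb*, the beta-actin gene, had 2861 ± 36.7 CPM in Neg ESC and 2968 ± 32.5 in 3xKD ESC, and 2996 ± 115 and 3158 ± 106 in Neg and 3xKD EpiLC (SD, n = 3 each). It was not called in any comparison. *Tbp*, the TATA-binding protein gene, had 42.9 ± 0.93 CPM in Neg ESC and 34.2 ± 0.64 in 3xKD ESC (log2 fold change −0.33, SE 0.056), and 51.5 ± 1.1 and 37.0 ± 2.9 in Neg and 3xKD EpiLC (−0.48, SE 0.054). Both differences of *Tbp* passed the adjusted p limit and stayed under the fold limit. *Gapdh*, by comparison, had log2 fold changes of 0.60 and 0.24.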
